A study of Rattus norvegicus with 27 samples.

Results

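The change in the polysome to total ratio of hippocampal CA1 was followed across 18511 probe sets. For each probe set it is the difference between reperfused and control pools in polysome RNA minus the same difference in total RNA, so a negative value means that the signal of a transcript in polysome RNA, relative to its signal in total RNA, was lower after ischemia than in controls. The arrays were chosen by their titles, which gave 13 CA1 arrays of the 27 in the study, and the pool number was used as a block. Values are log2(intensity + 16), on which the change of dim transcripts is understated, and only probe sets with 1 gene symbol entered.

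All animals were male Long Evans rats. The non-ischemic controls, called NIC, had a sham operation. The reperfused animals, called 8R, had 10 min of complete ischemia of the brain at normal body temperature, made by carotid occlusion with blood withdrawal to a mean arterial pressure of 45 mm Hg, followed by 8 h of reperfusion. CA1 pieces of 5 rats made 1 pool, and a supernatant freed of mitochondria was split, with 20% extracted as total RNA and the remainder pelleted over a sucrose pad of 20% to give polysome RNA. NIC CA1 had 3 pools with both fractions. For 8R CA1 there were 4 arrays of total RNA and 3 of polysome RNA, and by the pool codes polysome RNA came from pools 1, 3 and 4, so 12 arrays carried the contrast and the total RNA of 8R pool 2 had no partner. Because 1 ug of RNA was labelled for every array, the amount of RNA in either fraction does not appear in the values, and a ratio, like the words rich or poor in the pellet, is relative to the other transcripts of its arrays. A pellet under a pad holds everything heavy enough to pass it and is not sorted by the number of ribosomes.

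An mRNA being translated carries several ribosomes and sediments as a polysome, whereas an mRNA that is stored or silenced sediments with lighter particles. Reperfusion after global brain ischemia is known to halt protein synthesis, in part through phosphorylation of the initiation factor eIF2, while stress genes are strongly transcribed. Synthesis is known to return within hours in resistant neurons such as those of CA3, and CA1 pyramidal neurons are known to die days later. Dissected CA1 also holds glia, vessels and interneurons, and in such bulk samples fewer cells of a type and less RNA per cell cannot be told apart.

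Median intensity was from 29.98 to 32.08 in CA1 total RNA and from 32.21 to 38.09 in CA1 polysome RNA, and the number of arrays limits the precision. Pairs of arrays of 1 group correlated at 0.965 or more, and 0 arrays were identical. Pyramidal markers matched the region labels: 6 of 6 for CA1 and 6 of 6 for CA3 were brighter in control total RNA of their own region without overlap. Wfs1, a CA1 pyramidal marker, measured 600 ± 74.8 (SD, n = 3) in CA1 and 181 ± 6.28 (n = 3) in CA3. The dentate granule marker Prox1 was also brighter in CA1, at 95.5 to 125 against 53.4 to 63.8. So was the myelin gene Mbp, at 710 to 825 against 415 to 526. Ranges of Gad1, Aqp4, Cx3cr1, Cldn5, Ttr, Kl and Folr1 overlapped. Whether CA1 pieces held dentate tissue was not tested. Arrays of 8R pool 4, of both regions and fractions, deviated from their groups together (correlations of 0.50 to 0.74), and counts without its CA1 arrays are given below. Pools of 5 rats are the replicates. Each pool had its own term, so p-values measure the spread between pools of the polysome to total ratio. Differences between pools that both fractions share were removed, and the variance was shared by CA1 and CA3.

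After 8 h of reperfusion the ratio fell for 2459 probe sets (13.3% of those tested) and rose for 446 (2.41%), at a limma adjusted p under 0.05. At an unadjusted p under 0.05 there were 5223, where a share of 0.05 would be 926. Transcripts whose ratio fell were mostly bright and in controls rich in the polysome pellet. Their median log2 ratio, of which the contrast is made, was 0.63 in NIC and 0.11 in 8R, and 94.7% of them lay above the median level of all probe sets. Of the 2459, 1532 stood above NIC in total RNA and below NIC in polysome RNA, 730 stood above NIC in both with the smaller difference in polysome RNA, and 197 stood below in both. Over all 18511 probe sets these counts were 4307, 6071 and 4185. Those whose ratio rose had a median of -0.27 in NIC and 0.28 in 8R. Of the 446, 331 stood below NIC in total RNA and above it in polysome RNA, as did 3948 of all 18511. Choosing probe sets by the change of the ratio favours opposite moves of the 2 fractions by construction. The sizes were modest: the median change was -0.50 log2 among the falls and 0.52 among the rises, and 14 falls and 7 rises reached 2-fold. Over all probe sets the median change was -0.04.

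**Figure D1:**
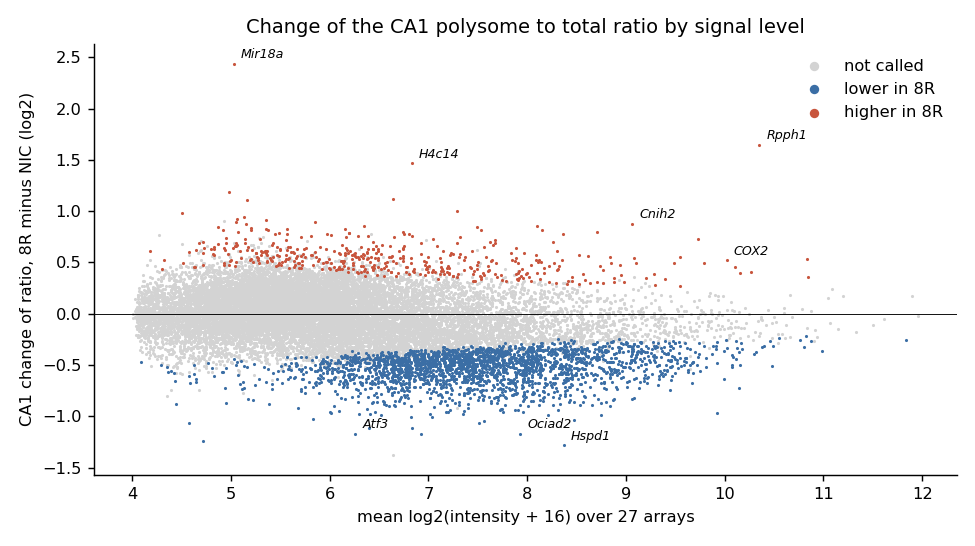
Change of the CA1 polysome to total ratio (vertical axis, log2, 8R minus NIC) against the mean log2(intensity + 16) over 27 arrays (horizontal axis), with 1 point per probe set, blue where the ratio fell, red where it rose and grey where the adjusted p was 0.05 or more. Falls lie mainly at higher levels, with Hspd1 at -1.28, and the tallest rises are Mir18a at 2.44 and Rpph1 at 1.65.

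How arrays are scaled to each other decided much of this asymmetry. With quantile normalization 856 probe sets rose and 983 fell, so that rises made up 46.5% of the calls instead of 15.4%, and 1349 of the calls were made on both scales. The pool block changed the number of calls more than their balance: without it 51 rose and 348 fell, 12.8% of them rises, and all were among the calls made with it. Leaving out NIC pool 2 gave 223 rises and 1415 falls, leaving out NIC pool 3 gave 297 and 2025, leaving out 8R pool 1 gave 266 and 1520, and leaving out 8R pool 4 gave 231 and 1581.

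Hspd1, which encodes the mitochondrial chaperonin that folds imported proteins, had the largest fall among genes whose 3 control and 3 reperfused pools did not overlap. Total RNA of NIC pools 1, 2 and 3 gave intensities of 117, 95.6 and 114, and polysome RNA of the same pools gave 362, 264 and 284. In 8R, total RNA of pools 1 to 4 gave 619, 515, 446 and 639, and polysome RNA of pools 1, 3 and 4 gave 603, 506 and 667. The transcript was thus brighter in both fractions after ischemia, but the gap between fractions closed: log2 ratios of 1.51, 1.33 and 1.21 in NIC stood against -0.04, 0.18 and 0.06 in 8R. The ratio fell 2.43-fold (-1.28 ± 0.11 log2, SE, limma adjusted p = 7.12e-07).

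Ociad2, which encodes a mitochondrial membrane protein, showed the same form with little spread. Its intensity in total RNA went from 105, 99.4 and 109 in NIC to 463, 443, 404 and 516 in 8R, and in polysome RNA from 177, 168 and 179 to 286, 309 and 366. Every control pool had a ratio of 0.65 to 0.67, every reperfused pool one of -0.66 to -0.37, and the ratio fell by 1.17 (SE 0.11, limma adjusted p = 1.27e-06). Ccdc25, a coiled-coil protein gene, fell by 1.17 as well, from ratios of 1.37, 1.41 and 1.32 to 0.24, 0.53 and -0.16. Its polysome intensity was 166, 155 and 159 in NIC and 138, 145 and 96.1 in 8R, and its total intensity was 54.4, 48 and 53.9 against 115, 92.3, 96 and 110, so the fractions moved in opposite directions.

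The transcription factor genes Atf3 and Cebpg were among the largest falls, with brighter total RNA in every 8R pool than in any NIC pool. Atf3, an immediate transcriptional regulator of stressed cells, measured 8.88, 4.29 and 16.4 in NIC total RNA and 163, 111, 96.1 and 125 in 8R total RNA. In polysome RNA it went from 34.8, 31.9 and 33.5 to 112, 87.2 and 122. Total RNA therefore stood 2.48 log2 above NIC and polysome RNA 1.31, and the ratio fell by 1.17 (SE 0.18, limma adjusted p = 2.39e-04), a call lost without the pool block. Because Atf3 was dim in NIC, that change rests on signals near the constant of 16. Cebpg, a bZIP partner of such factors, had ratios of 0.72, 0.58 and 0.49 in NIC and of -0.58, -0.37 and -0.59 in 8R, a fall of 1.11 (SE 0.14, adjusted p = 4.19e-05). Its total intensity went from 39.8, 36.8 and 37 to 149, 111, 102 and 114, while its polysome intensity was between 58.1 and 94.1 in all 6 pools.

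Mdm2, the ubiquitin ligase that restrains p53, fell by 1.01 (SE 0.12, limma adjusted p = 3.29e-05), from ratios of 0.80, 0.95 and 0.84 to -0.34, 0.16 and -0.26. Its total intensity of 71.5, 56.7 and 63.9 in NIC stood against 206, 145, 140 and 170 in 8R. Polysome RNA gave 136, 124 and 128 and then 159, 158 and 139. Idi1, an isomerase of isoprenoid and cholesterol synthesis, fell by 1.11, Aimp1, a scaffold of the multi-synthetase complex, by 1.05, and Scg5, a chaperone of the secretory pathway in neurons, by 1.04. Tmx1, a thioredoxin of the endoplasmic reticulum, and Strbp, an RNA-binding protein, each fell by 0.99.

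Akap5, the anchoring protein that holds protein kinase A at postsynaptic sites, differed from the stress genes in that total RNA stood only 0.25 log2 above NIC. Its polysome intensity was 332, 324 and 317 in NIC and 195, 319 and 85.2 in 8R, with pool 4 the lowest and pool 3 at the control level. Total RNA gave 132, 121 and 138 in NIC and 158, 137, 225 and 109 in 8R. Within pools the ratio fell by 1.07 (SE 0.15, limma adjusted p = 1.04e-04), from 1.23, 1.31 and 1.11 to 0.28, 0.48 and -0.30, and without the block the call was lost. Timd2, a receptor gene for H-ferritin, fell by 1.24, but its intensities in control total RNA were 1.95, 1.81 and 4.44, below the 30th percentile of all probe sets. Rpl26-ps13, named as a pseudogene, fell by 1.03 and shares its sequence with the parent gene, so its signal is uncertain. Mgst3l1, a glutathione transferase-like gene, fell by 1.01, a call lost without the block.

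**Figure D2:**
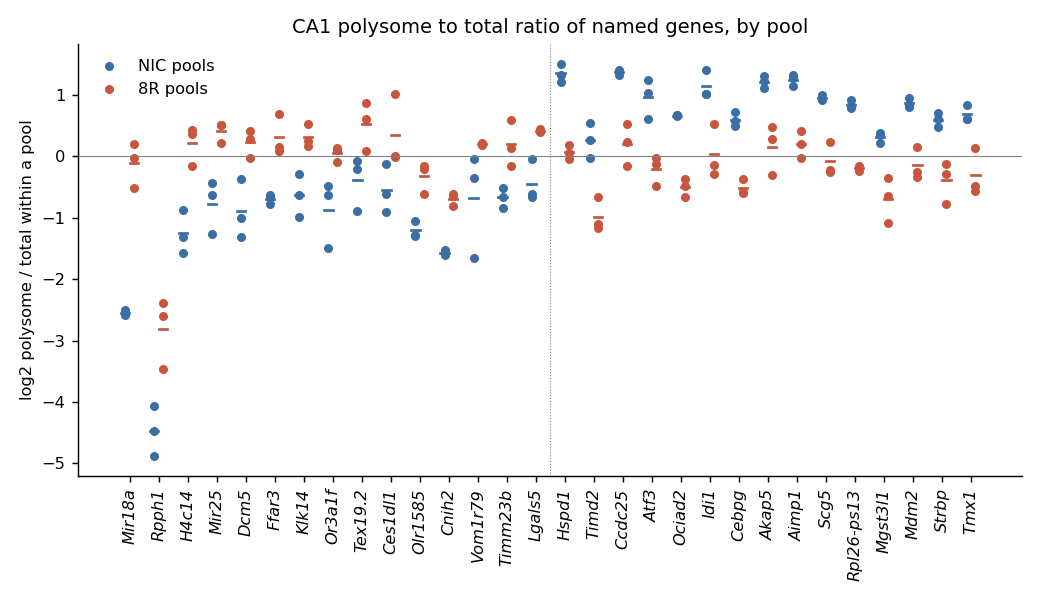
Log2 polysome to total ratio in each CA1 pool (vertical axis) for the 15 genes with the largest rise, left of the dotted line, and the 15 with the largest fall, right of it, with 3 NIC pools in blue, 3 8R pools in red and bars at the means. The pools of each gene do not overlap by the rule that chose them, and Rpph1 stays below -2 in every pool, from -4.88 to -2.38.

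Among the 15 named rises, Rpph1, the RNA component of ribonuclease P, which is not translated, had the highest intensities. Control intensities were 5260, 5020 and 5310 in total RNA and 220, 155 and 304 in polysome RNA, and in 8R they were 4080, 4170, 3770 and 4220 in total RNA and 769, 324 and 680 in polysome RNA. Its ratio went from -4.48, -4.88 and -4.06 to -2.38, -3.47 and -2.60, a 3.14-fold rise (1.65 ± 0.24, SE, limma adjusted p = 1.19e-04). Its relative signal in the pellet was thus low in every pool, with 324 in the lowest 8R pool against 304 in the highest NIC pool. Of 3 measured mitochondrially encoded transcripts, which cytosolic ribosomes do not read, 2 rose. COX2 rose by 0.52 (SE 0.14, adjusted p = 0.0119), from ratios of -2.20, -2.24 and -2.50 to -1.87, -2.02 and -1.48, COX1 rose by 0.36 (adjusted p = 0.0182), and COX3 measured 0.15 (adjusted p = 0.379). The calls of COX2 and COX1 were lost without NIC pool 3 (adjusted p = 0.0679 and 0.0888), without 8R pool 4 (0.0958 and 0.136), with pool as a random effect (0.0666 and 0.117) and without the block (0.211 and 0.288). Of 8 noncoding RNAs listed, 1 rose, which is Rpph1, and 0 fell by limma, with 2 lower at an unadjusted p under 0.05.

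Cnih2, which encodes the cornichon subunit that sets the gating of AMPA receptors, rose by 0.88 with the smallest error of the named rises (SE 0.09, limma adjusted p = 5.60e-06). In total RNA it went from 1240, 1260 and 1360 in NIC to 645, 643, 814 and 826 in 8R. Its polysome intensities overlapped, at 403, 428 and 434 against 362, 513 and 532. Ratios were -1.59, -1.52 and -1.61 in NIC and -0.81, -0.65 and -0.62 in 8R, without overlap. Ffar3, a receptor for short-chain fatty acids, rose by 1.00 (SE 0.14, adjusted p = 8.79e-05), with 229, 240 and 229 in NIC total RNA and 101, 126, 101 and 140 in 8R. In polysome RNA it stood at 128, 149 and 137 and then at 173, 114 and 150, so as for Cnih2 the fractions differed mainly through total RNA. H4c14, a replication-dependent histone gene, rose by 1.47 (SE 0.17, adjusted p = 2.99e-05), with total intensities of 197, 193 and 236 in NIC and 97.4, 89.2, 63.8 and 46.1 in 8R. Histone H4 genes are near-identical copies, so its value is uncertain, and the call was lost without the block.

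The microRNA genes Mir18a and Mir25 were among the rises. Mature microRNAs guide silencing complexes, and the seed, bases 2 to 8, pairs with target mRNAs. Whether hairpin, host transcript or mature RNA gave the signal is not known from the probe set. Their mature sequences are shown because they identify the named products, with the seed in capitals, from RefSeq on GRCr8. Mir18a lies on the plus strand of chr15:98587984-98588079 and Mir25 on the minus strand of chr12:22156641-22156724, and both matched the microRNA table.
rno-miR-18a-5p: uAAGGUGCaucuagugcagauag
rno-miR-18a-3p: aCUGCCCUaagugcuccuucu
rno-miR-25-3p: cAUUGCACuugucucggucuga
rno-miR-25-5p: aGGCGGAGacacgggcaauugc
The 4 seeds differ from one another. Mir18a measured 80.4, 86.7 and 80.8 in NIC total RNA and 0.00177, 1.44 and 1.15 in NIC polysome RNA. In 8R total RNA it was 0.625, 0.784 and 0.87 in pools 1, 2 and 3 but 102 in pool 4, and in polysome RNA it was 3.11 and 0.633 in pools 1 and 3 but 66.6 in pool 4. Each array thus had a value near 0 or near 80, and pool 4 resembled the control total RNA in both fractions. The fitted rise was 2.44 (SE 0.21, limma adjusted p = 7.12e-07), but with polysome signals near 0 in NIC and both fractions near 0 in 8R pools 1 and 3 its size is set by the added constant, at 5.76 with 1 added and 1.08 with 64. The call was lost without the block. Mir25 had 32.3, 25.9 and 28.9 in NIC total RNA and 19.7, 11.1 and 2.66 in NIC polysome RNA, and 23.9, 24 and 23.8 in 8R polysome RNA, a rise of 1.19 (SE 0.19, adjusted p = 2.98e-04) in a dim probe set.

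Of the other named rises, 3 kept their call in every setting run. Lgals5, a galectin, rose by 0.86 (limma adjusted p = 0.00286), with 8R ratios of 0.39, 0.44 and 0.41. Klk14, a kallikrein protease gene, rose by 0.94 from low intensities of 8.03 to 37.8 in NIC, and Timm23b, listed as a pseudogene of a mitochondrial import channel, by 0.86. Dcm5, a noncoding transcript, rose by 1.12 and lost its call without the block. Tex19.2, Ces1dl1, Or3a1f, Olr1585 and Vom1r79 rose by 0.91, 0.89, 0.92, 0.89 and 0.88, and each lost its call without the block. Without single pools the calls of Tex19.2 (NIC pool 3, adjusted p = 0.0569; 8R pool 1, 0.0592), Ces1dl1 (NIC pools 2 and 3, 0.116 and 0.0524; 8R pool 3, 0.117), Or3a1f (NIC pool 1, 0.158; 8R pools 1, 3 and 4, 0.0528, 0.0591 and 0.0847) and Vom1r79 (NIC pool 3, 0.174; 8R pools 1 and 4, 0.0693 and 0.0637) were also lost. The last 3 of the 5 are sensory receptor genes. Over 1414 probe sets with olfactory, vomeronasal or taste receptor symbols, a set chosen after their values were seen, 26 rose (1.84%) and 19 fell (1.34%), and 1277 were below the 30th percentile, so rises were no more frequent than over all probe sets.

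Gene lists were compared with the background of 13.3% lower and 2.41% higher. That background includes many dim probe sets, and falls were more frequent among bright ones. In bins 8, 9 and 10 of 10 equal bins by mean level, 24.6%, 35.7% and 44.4% fell. Respiratory chain (44.9% lower), axonal (46.4%) and cytosolic ribosomal protein (37.5%) lists had median levels of 8.43 to 9.24. Their shares thus lay near or below that of bin 10. Some other lists had smaller shares of falls than the bin that holds their median level. These included glycolysis and hypoxia (32%, bin 9), antioxidant (20.8%, bin 10), selenoprotein (15.8%, bin 8) and astrocyte (25%, bin 10) genes. Each list holds 1 probe set per gene, the brightest, and its median is set beside the -0.04 of all probe sets. Of 40 lists, 31 had a median change below 0 and 9 above. In 20 the 3 reperfused pool medians all lay below the 3 control ones, and in 3 they all lay above. For single probe sets, the pool ratios did not overlap in 30.9% of all 18511, with 4075 below and 1644 above. Of the lists given below with 0 rises by limma, the splicing, initiation and elongation factor, synthetase, proteasome and axonal lists had 0 higher at an unadjusted p under 0.05 as well. Mitochondrial ribosomal, dendritic, CA1 pyramidal, CA3 pyramidal and reactive astrocyte lists had 1 each. Sodium and calcium channels and interneuron markers had 2 each. With quantile normalization 11 of the 31 medians turned positive and 20 did not, 1 of which, that of late activity-induced genes, was -0.00.

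**Figure D3:**
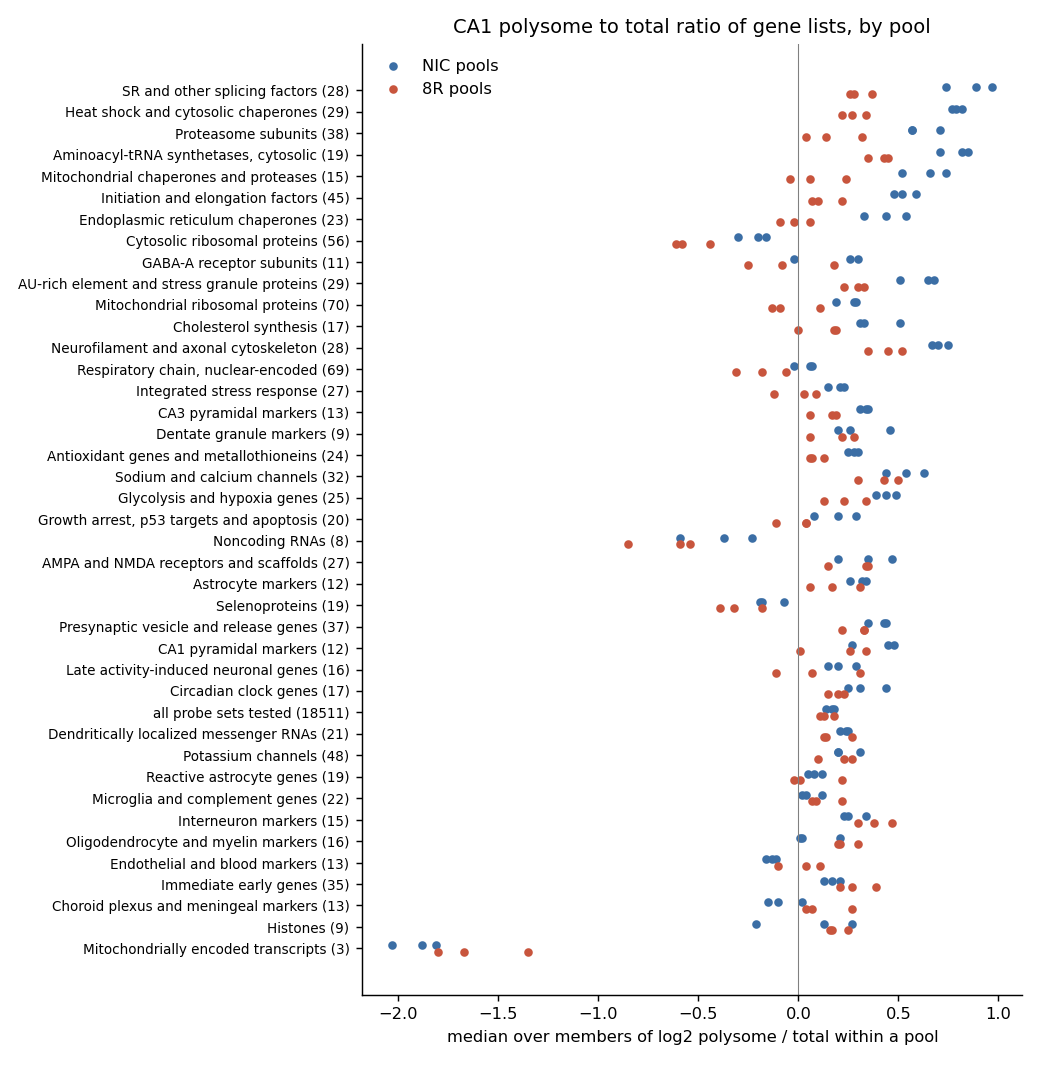
Median log2 polysome to total ratio over the members of each gene list (horizontal axis) in each CA1 pool, 3 NIC pools in blue and 3 8R pools in red, with the number of measured members in parentheses, ordered by the median change. Splicing factors, with a median change of -0.53, lie at the top, and the 3 mitochondrially encoded transcripts, with 0.36, at the bottom.

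Splicing regulators had the lowest median of any list. Of 28 measured SR proteins and other splicing factors, 22 fell and 0 rose, with a median of -0.53, and all 28 estimates were negative. In controls they were rich in the pellet, with a median ratio of 0.90, which was 0.27 in 8R. Srsf3, an SR protein that also shuttles mRNA out of the nucleus, measured 68, 55.5 and 61.7 in NIC total RNA and 198, 178, 150 and 142 in 8R. Polysome RNA gave 118, 134 and 129 and then 189, 177 and 148. Total RNA was above every control pool, the polysome signal less so, and the ratio fell by 0.81 (SE 0.13, limma adjusted p = 2.06e-04). Srsf7 fell by 0.96, Luc7l3, a component of the U1 particle, by 0.91, and Rbm39, a coactivator of splicing, by 0.82. The count fell to 14 without NIC pool 2 or without 8R pool 4, to 12 with quantile normalization and to 10 without the block.

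Proteins that bind AU-rich elements or gather in stress granules had 15 falls and 2 rises among 29, with a median of -0.33. Fmr1, the fragile X translational regulator, fell by 0.69 (limma adjusted p = 0.0034), Ddx3x, a helicase of initiation, by 0.64, Tia1, a stress granule nucleator, by 0.62, and its relative Tial1 by 0.61. The 2 rises were Zfp36l1 (0.55) and Zfp36l2 (0.45), which recruit mRNA decay enzymes to AU-rich elements. Both were named after their values were seen, and a second, dimmer probe set of Zfp36l2 measured 0.13 (adjusted p = 0.713). Without NIC pool 2 the falls numbered 8 and the rises 0, and without 8R pool 4 they numbered 9 and 1. Quantile normalization left 6 falls, and without the block there were 4, with the calls of Fmr1, Tia1 and Tial1 lost.

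Cytosolic chaperones were the clearest of the stress lists. Of 29, 21 fell and 1 rose, with a median of -0.50, and total RNA stood 0.86 log2 above NIC in the median against 0.29 in polysome RNA. Dnaja1, a J-domain partner of Hsc70, had total intensities of 419, 350 and 492 in NIC and 1540, 1270, 1270 and 1610 in 8R. Its polysome intensities were 930, 867 and 846 and then 1640, 1350 and 1690. Both fractions were brighter in every 8R pool, and the ratio fell by 0.97 (SE 0.10, limma adjusted p = 4.68e-06). Chordc1, an Hsp90 cochaperone, fell by 0.85, Ptges3, the p23 cochaperone, by 0.82, and Tcp1, a subunit of the cytosolic chaperonin, by 0.80.

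Hspb1 and Bag3 of the same list did not follow, and were chosen after their values were seen. Hspb1, the small heat shock protein Hsp27, went from 17.8, 16.6 and 15.9 to 575, 391, 401 and 733 in total RNA. In polysome RNA it went from 15, 18.6 and 18.7 to 560, 335 and 840. The differences from NIC were 4.12 and 4.06 log2, and the change of the ratio was -0.06 (SE 0.14, adjusted p = 0.851). Bag3, the cochaperone of Hsp70 in selective autophagy, rose by 0.40 (limma adjusted p = 0.00975), with 114, 117 and 129 in NIC polysome RNA and 630, 385 and 996 in 8R, and lost that call without 8R pool 4, with pool as a random effect and without the block. The list's 21 falls were 18 to 20 on leaving out any 1 CA1 pool, 15 with quantile normalization and 10 without the block.

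Of 15 mitochondrial chaperones and proteases, 10 fell and all 15 estimates were negative, with a median of -0.42. After Hspd1 came Clpx, the unfoldase of the ClpXP protease (-0.76), Lonp1, the matrix protease (-0.64, lost without the block), and Afg3l2, a protease of the inner membrane (-0.59). Among 23 endoplasmic reticulum chaperones 11 fell, with a median of -0.39. Calr, the calcium-binding lectin chaperone calreticulin, fell by 0.89 (limma adjusted p = 3.40e-05), from ratios of 0.79, 0.80 and 0.79 to -0.27, 0.06 and -0.10. Pdia3, an oxidoreductase that works with it, fell by 0.89, Hsp90b1, the Hsp90 of this compartment, by 0.82, and Pdia6 by 0.75. The falls of the 2 lists numbered 5 and 8 with quantile normalization and 3 and 4 without the block.

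The integrated stress response list was mixed. Of 27 members, 8 fell and 2 rose, with a median of -0.23, while total RNA stood 0.50 and polysome RNA 0.42 log2 above NIC. After Atf3 and Cebpg, Gadd45a, a growth arrest gene, fell by 0.90 (limma adjusted p = 0.00109), and Phgdh, which starts serine synthesis, measured 0.55 (adjusted p = 0.0992). Atf4, the factor whose translation is known to persist when eIF2 is phosphorylated, and Ddit3, the pro-apoptotic factor CHOP, are given for that role, outside the naming rule. Atf4 had ratios of -0.37, -0.31 and -0.06 in NIC and -0.20, -0.32 and -0.03 in 8R, a change of 0.06 (adjusted p = 0.775). For Ddit3 total RNA stood 1.83 and polysome RNA 1.72 log2 above NIC, a change of -0.10 (adjusted p = 0.661). The 2 rises, Cebpb (0.47) and Atf5 (0.41), another factor known for such regulated translation, are named as the only rises, and both were lost without NIC pool 2, NIC pool 3, 8R pool 1 or 8R pool 4. The 8 falls were 5 without 8R pool 1 and 2 without the block.

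Growth arrest, p53 and apoptosis genes had 6 falls and 1 rise among 20. Besides Mdm2 and Gadd45a, Gadd45b fell by 0.69 and Gadd45g by 0.63, with total RNA 2.23 and 2.67 log2 above NIC, and both calls were lost without the block. The rise was Casp8, an initiator caspase gene (0.59), lost without NIC pool 2 or 8R pool 4. The call of Gadd45g was also lost without NIC pool 2 (limma adjusted p = 0.0989) and without 8R pool 1 (0.0728).

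The protein synthesis apparatus followed the same pattern. Of 45 initiation and elongation factors, 27 fell and 0 rose, with a median of -0.40, and the median ratio went from 0.52 to 0.08. Eif2s1, the subunit of eIF2 that stress kinases phosphorylate, fell by 0.89 (limma adjusted p = 2.96e-04), from ratios of 0.75, 0.98 and 0.48 to -0.10, 0.08 and -0.44. Eif3m, a subunit of the factor that assembles the initiation complex, fell by 0.85, Etf1, the release factor, by 0.72, and Eef1b2, an exchange factor of elongation, by 0.73. The call of Eef1b2 was lost without the block and without NIC pool 1 (adjusted p = 0.088), NIC pool 2 (0.0775), 8R pool 3 (0.0878) or 8R pool 4 (0.115). Of 19 cytosolic aminoacyl-tRNA synthetases, which charge tRNAs, 12 fell and 0 rose, with a median of -0.46. Rars1 kept nearly equal ratios within groups, 1.06, 1.21 and 1.06 in NIC and 0.44, 0.44 and 0.43 in 8R, and fell by 0.67. Hars1 fell by 0.73, Sars1 by 0.66 and Tars1 by 0.65, the last lost without the block. Without NIC pool 2 the factors had 17 falls, with quantile normalization the 2 lists had 12 and 5, and without the block they had 6 and 4.

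Mitochondrial ribosomal proteins, which build the organelle's own ribosome from cytosolic translation, had 26 falls among 70 (37.1%) and 0 rises, with a median of -0.31. Mrpl32 and Mrpl35 each fell by 0.87, Mrps18c by 0.85 and Mrps30 by 0.76. The falls numbered 14 without 8R pool 1 or 8R pool 4, 15 without NIC pool 2, 8 with quantile normalization and 5 without the block, where Mrps18c was among the calls lost.

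Cytosolic ribosomal proteins were poor in the pellet already in controls, with a median ratio of -0.22 that was -0.52 in 8R. Of 56 measured, 21 fell (37.5%), 2 rose and the median was -0.33. Total RNA stood 0.52 and polysome RNA 0.20 log2 above NIC in the median. These genes have many near-identical pseudogenes, so single members are uncertain. The largest change was the rise of Rpl10 (0.78, SE 0.18, limma adjusted p = 0.00509), from ratios of -0.75, -0.86 and -1.58 to -0.06, -0.29 and -0.52, a call lost without the block. Rpl41, the smallest ribosomal protein, was the other rise (0.55, adjusted p = 0.0303) and is named for that, a call lost without NIC pool 3, 8R pool 1 or 8R pool 3. Rps16 measured -0.65 (adjusted p = 0.0636), Rpl24 fell by 0.65 and Rpl35a by 0.63. The falls numbered 13 without NIC pool 2 or 8R pool 1, 6 with quantile normalization and 2 without the block.

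Ribosomal protein mRNAs are known for a terminal oligopyrimidine start, a C followed by pyrimidines, through which growth signals regulate their translation. The starts of the 4 members with the largest changes are shown because that feature lies there, each with 10 bases before and 15 from the RefSeq start on GRCr8, and with the first 5 transcribed bases in capitals. Rpl10 lies at chrX:157205840-157205864 (plus strand), Rps16 at chr1:92770648-92770672 (plus), Rpl24 at chr11:58128391-58128415 (minus) and Rpl35a at chr11:81235007-81235031 (minus).
Rpl10: gtgggagcgtCTCTTttcctctggc
Rps16: aaaatcggtcGGGGTggccccaagc
Rpl24: tagggaggagATTCTctaccctata
Rpl35a: tcttgccttcCTCTTtccgccatct
A start of C and 4 more bases that are each C or T, read on the transcript's strand at the annotated first base alone, was found in Rpl10, which rose, and in Rpl35a, which fell. It was found in 16 of the 46 measured ribosomal protein genes with a window (34.8%) and in 881 of 33469 windows in all (2.63%). The annotated first base can lie away from the one used in CA1. Of the 16 genes with it, 4 fell and 1 rose (median -0.22), and of the 30 others, 15 fell and 1 rose (median -0.36). Outside this family 328 genes had such a start, and 44 of them fell (13.4%), close to the 13.8% of all 14505 measured genes with a window.

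**Figure D4:**
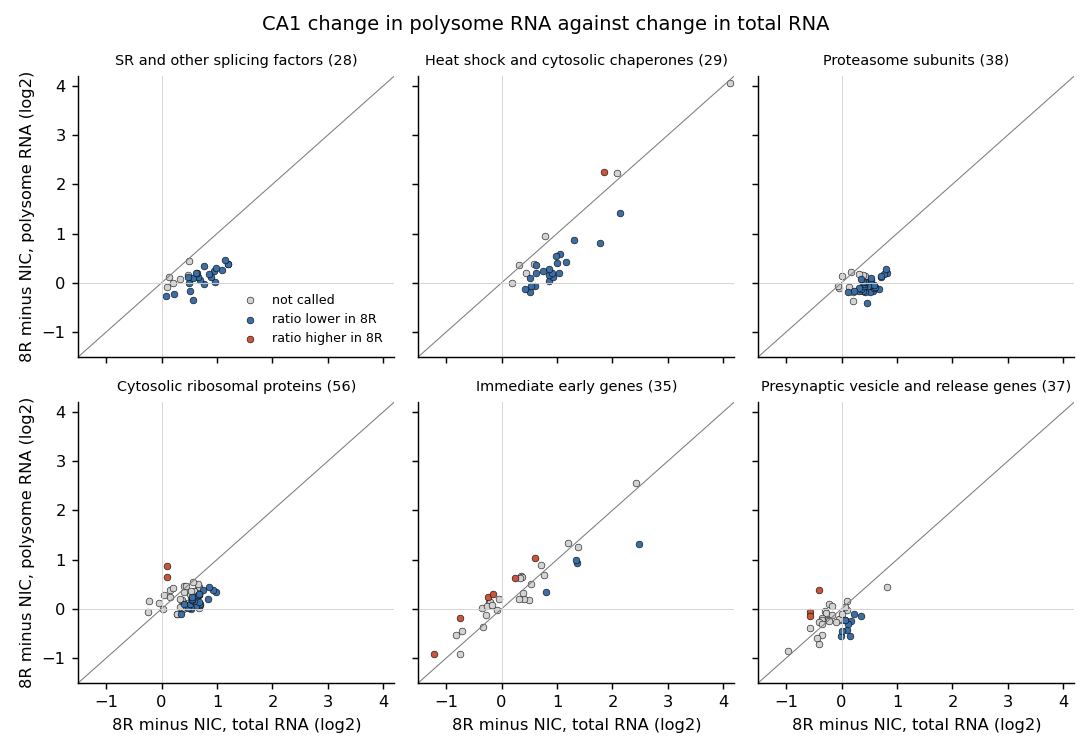
Difference between 8R and NIC in CA1 polysome RNA (vertical axis, log2) against that in total RNA (horizontal axis, log2) for the members of 6 lists, with the line of equal change, blue where the ratio fell, red where it rose and grey where it did not pass the test. Splicing factors, chaperones, proteasome and ribosomal protein genes lie mostly right of the line, Hspb1 lies on it at 4.12, and immediate early genes lie on both sides.

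Proteasome subunits, which form the main protease of the cytosol, had 27 falls and 0 rises among 38, with a median of -0.47. Psmd7, a lid subunit, had control ratios of 0.89, 1.05 and 0.90 and reperfused ratios of 0.03, 0.24 and -0.00. It fell by 0.86 (SE 0.10, limma adjusted p = 1.53e-05), with total RNA 0.46 above and polysome RNA 0.40 below NIC on the log2 scale. Psmc5, an ATPase of the cap, fell by 0.79, and the core subunits Psma7 and Psma5 by 0.72 and 0.70, the last pair losing their calls without the block. The 27 falls were 19 without 8R pool 1, 11 with quantile normalization and 5 without the block.

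Nuclear genes of the respiratory chain had 31 falls and 1 rise among 69, with a median of -0.27. Ndufs5, Ndufb6 and Ndufs1, subunits of complex I, fell by 0.78, 0.61 and 0.60, and Atp5pb, of the ATP synthase, by 0.59, all losing their calls without the block. The rise was Atp5mc1, of the synthase's membrane ring (0.44, limma adjusted p = 0.00876), lost without 8R pool 1. Falls numbered 18 without 8R pool 4, 19 without NIC pool 2, 7 with quantile normalization and 2 without the block. Of 25 glycolysis and hypoxia genes 8 fell (32%), a share below the 35.7% of all probe sets in level bin 9, which holds their median level. The largest falls were P4ha1, a collagen hydroxylase induced by hypoxia (-0.86), and Pgk1, a glycolytic kinase (-0.56). In this list 3 fell without NIC pool 2 or 8R pool 1, 5 without NIC pool 3, 1 with quantile normalization and 0 without the block. Cholesterol synthesis had 5 falls among 17, with Insig1, the sterol sensor's partner, at -0.66 after Idi1, and 3 without NIC pool 2. Antioxidant genes and metallothioneins had 5 falls and 2 rises among 24, with a median of -0.17, and 0 falls and 3 rises with quantile normalization. The falls included Fth1, the ferritin heavy chain (-0.50), Txnrd1, a thioredoxin reductase (-0.38), and Gclc, of glutathione synthesis (-0.37), and numbered 1 without 8R pool 1, 5 without 8R pool 3 and 2 without any other CA1 pool. Metallothionein Mt2A, a zinc-binding protein, rose by 0.53 (adjusted p = 0.00181) with total RNA 1.11 and polysome RNA 1.63 above NIC, and its second probe set rose by 0.80. Selenoprotein genes had 3 falls and 1 rise among 19, led by Selenos (-0.68) and Sephs2 (-0.64), with 1 fall without NIC pool 3. The rise was Selenow (0.47), which was poor in the pellet, with ratios of -2.26 to -2.09 in NIC and -1.87 to -1.54 in 8R. Without the block the calls of P4ha1, Pgk1, Insig1, Mt2A and Selenow were lost.

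Immediate early genes were 1 of the 9 lists with a median above 0. Of 35, 6 rose (17.1% against 2.41% of all) and 4 fell (11.4% against 13.3%), Atf3 among them, and the median was 0.17. Their pool medians of 0.13 to 0.21 in NIC and 0.21 to 0.39 in 8R met. Medians were higher for mitochondrially encoded transcripts (0.36), histones (0.31, 2 rises and 2 falls among 9) and choroid plexus and meningeal markers (0.25, 1 rise among 13). Egr3, a zinc finger factor induced by synaptic activity, measured 212, 214 and 216 in NIC total RNA and 102, 82.7, 137 and 129 in 8R. Polysome RNA held 211, 225 and 246 and then 160, 229 and 212, overlapping between groups. Its ratio rose by 0.55 (SE 0.11, limma adjusted p = 0.00135), from -0.00, 0.07 and 0.17 to 0.57, 0.68 and 0.65. Egr4 rose by 0.50 and Fosb by 0.47, and Arc, the activity-regulated capsid-like protein, measured 0.15 (adjusted p = 0.456) with total RNA 1.19 and polysome RNA 1.33 log2 above NIC. The calls of Egr4 and Fosb were lost without NIC pool 1 (adjusted p = 0.0646 and 0.0767), NIC pool 2 (0.0527 and 0.0669), 8R pool 1 (0.0674 and 0.0817) or 8R pool 4 (0.225 and 0.0754), and Egr4's also without NIC pool 3 (0.176). The 6 rises were 2 without NIC pool 2 or 8R pool 4 and 3 without NIC pool 1, NIC pool 3 or 8R pool 1, 13 with quantile normalization and 0 without the block, so the number of rises depends on the scaling, on the block and on single pools. The 4 falls were 2 without NIC pool 1 or 3 and 1 without 8R pool 1.

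Of 16 later activity-induced genes, 4 fell and 2 rose, with 0 rises without NIC pool 2, NIC pool 3 or 8R pool 4 and 1 without NIC pool 1 or 8R pool 3. Rgs2, which speeds the turning off of G proteins, measured 89.3, 83.3 and 86.1 in NIC total RNA and 541, 628, 406 and 489 in 8R. Polysome RNA gave 183, 153 and 175 against 495, 402 and 456. The ratio fell by 0.94 (SE 0.10, limma adjusted p = 8.64e-06), with both fractions above NIC. Inhba, the activin subunit, fell by 0.81 with total RNA 2.19 above NIC, and lost its call without the block.

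Of 28 neurofilament and axonal cytoskeleton genes 13 fell and 0 rose, with a median of -0.27. Median total RNA stood at -0.02 log2 from NIC and polysome RNA at -0.21. Other neuronal lists had a like form. Total and polysome RNA stood at -0.05 and -0.23 for sodium and calcium channels, -0.04 and -0.24 for CA1 pyramidal markers and -0.01 and -0.20 for dendritically localized mRNAs. Gap43, the growth cone protein, had total intensities of 146, 119 and 138 in NIC and 163, 168, 136 and 96.5 in 8R, which overlap. In polysome RNA it had 213, 213 and 215 and then 144, 135 and 69.3, without overlap, and the ratio fell by 0.81 (SE 0.11, limma adjusted p = 8.44e-05). The neurofilament genes Nefm and Nefh fell by 0.71 and 0.59 and the motor gene Kif5b by 0.54. Without the block the calls of Gap43, Nefm and Kif5b were lost and the list had 1 fall. With quantile normalization it had 6, and its median was -0.06.

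Of 27 AMPA and NMDA receptor and scaffold genes, 3 rose and 4 fell, with Dlgap4 at 0.43 after Cnih2 and Dlg1, the scaffold SAP97, at -0.53. Presynaptic genes had 9 falls and 3 rises among 37, with Rims1, an active zone organiser, at -0.71 and Syt2, a calcium sensor of release, at 0.78. Both kept their calls without the block. Sodium and calcium channel genes had 6 falls among 32, led by the accessory subunits Cacna2d1 (-0.79) and Cacna2d3 (-0.65), and potassium channel genes had 4 falls and 1 rise among 48, with Kcnip4 at -0.81. GABA-A receptor genes had 4 falls among 11, with the scaffold Gphn at -0.63. The calls of Dlg1, Dlgap4, Kcnip4 and Gphn were lost without the block. Without 8R pool 1 these 5 lists had 2, 4, 3, 2 and 1 falls, and without NIC pool 2 they had 2, 5, 3, 2 and 1. The receptor list also had 2 without NIC pool 1 or 8R pool 4, and the potassium list 2 without 8R pool 4. For the AMPA and NMDA receptor, presynaptic, potassium channel and sodium and calcium channel lists the shares of falls were 14.8%, 24.3%, 8.33% and 18.8%. Over all probe sets 13.3% fell, but in the level bins that hold these lists' median levels 35.7%, 44.4%, 14.3% and 24.6% fell. Each list thus had a smaller share of falls than probe sets of like level. Their medians of -0.13, -0.11, -0.02 and -0.17 turned to 0.07, 0.10, 0.04 and 0.04 with quantile normalization. The balance of calls turned too for the first 3, to 1 fall and 6 rises, 1 and 9, and 1 and 4, and the fourth had 3 falls and 2 rises.

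CA1 pyramidal markers had 1 fall among 12 (Man1a1, -0.59) and their summed intensity was 1878 to 2089 in NIC total RNA and 1476 to 2301 in 8R. CA3 pyramidal markers had 3 falls among 13, led by the granin gene Chgb (-0.96), and 1 without 8R pool 4. Dentate granule markers had 2 falls and 2 rises among 9, with the calcium buffer gene Calb1 at -0.84 and Tdo2, a tryptophan oxygenase gene, at 0.62. The falls of that list were 1 without NIC pool 1, NIC pool 2, 8R pool 1 or 8R pool 3, and the rises 0 without NIC pool 2, 8R pool 3 or 8R pool 4 and 1 without NIC pool 3. Of 15 interneuron markers 0 were called by limma, with 2 higher and 0 lower at an unadjusted p under 0.05, and of 13 endothelial and blood markers 0 were called, with 0 at an unadjusted p under 0.05. Astrocyte markers had 3 falls among 12, led by the water channel gene Aqp4 (-0.62), and their sum was 3988 to 4225 in NIC total RNA and 4595 to 5471 in 8R. Oligodendrocyte markers had 1 rise, the lineage factor Sox10 (0.69), and 2 falls among 16, but 7 rises and 0 falls with quantile normalization. Of 22 microglia and complement genes 2 rose, the integrin gene Itgam (0.73, limma adjusted p = 0.0069) and C1qa (0.55), while the sum of that list was 856 to 915 in NIC total RNA and 1028 to 1206 in 8R. The sum of 19 reactive astrocyte genes was 1182 to 1220 in NIC total RNA and 2298 to 2871 in 8R. Their median change in total RNA was only 0.08 log2, against 0.17 for the microglia and complement list. The sum therefore does not describe the typical member. Of the 19, 1 was called, S100a10, which fell by 0.81 (limma adjusted p = 0.00207). The 2 falls of oligodendrocyte markers were 0 without NIC pool 2 and 1 without NIC pool 1, 8R pool 3 or 8R pool 4. Every marker of these lists reached an intensity of 1 in at least 1 array of each CA1 group, which is far below the added constant of 16. Below the 30th percentile of level lay 6 of 13 endothelial, 6 of 22 microglia and 6 of 19 reactive astrocyte members. The part that a shift between cell types has in the ratios was not tested. The calls of Aqp4, Sox10 and C1qa were lost without the block, and that of Man1a1 without the block, NIC pool 2 or 8R pool 1.

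Over all probe sets, ratios were less spread after ischemia. The SD of the log2 ratio over 18511 probe sets was 0.37, 0.395 and 0.381 in the NIC CA1 pools and 0.322, 0.293 and 0.316 in the 8R CA1 pools, with no overlap. In CA3 it was from 0.383 to 0.409 in NIC and from 0.287 to 0.337 in 8R. The change in CA1 contains the control ratio of CA1, so transcripts were ordered instead by the control ratio of CA3, which comes from other arrays. In 10 bins of equal size, from the lowest to the highest of that ratio, the median CA1 change went from 0.12 to -0.37, the share of falls from 5.45% to 52% and that of rises from 9.07% to 0.162%. With quantile normalization the medians went from 0.19 to -0.22. Across probe sets the CA1 change had a Pearson correlation of -0.48 with the CA3 control ratio and of -0.59 with the CA3 change in total RNA (n = 18511 probe sets, which share probes, platform and possibly rats, and are not replicates). Ordered by the CA3 change in total RNA, the median CA1 change went from 0.20 in the lowest bin to -0.41 in the highest. The CA1 change of the ratio subtracts the CA1 change in total RNA. Where both regions share a change in total RNA, this order and the correlation of -0.59 are therefore negative by construction. By mean level it went from -0.01 in the dimmest to -0.26 in the brightest bin, but from -0.01 to -0.03 with quantile normalization.

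**Figure D5:**
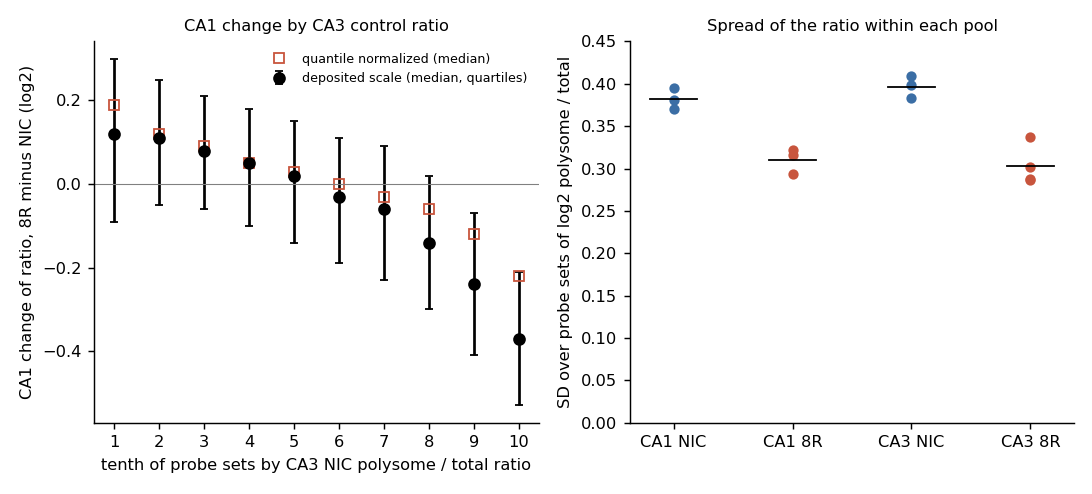
Left, median change of the CA1 ratio (vertical axis, log2, bars from the 25th to the 75th percentile of probe sets) in 10 equal bins of probe sets ordered by the control ratio of CA3, with open squares for quantile-normalized values. Right, SD over probe sets of the log2 ratio in each pool, with lines at group means. The median goes from 0.12 to -0.37, and every 8R pool has a smaller SD than every NIC pool of its region.

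The difference between regions was tested directly. No probe set differed between CA1 and CA3 in the change of the ratio at a limma adjusted p under 0.05 (0 of 18511, 0%), 1178 did at an unadjusted p under 0.05, where a share of 0.05 would be 926, and the lowest adjusted p was 0.167, that of Timd2. In CA3, 913 probe sets rose and 1947 fell. Of the CA1 falls 1321 were also called as falls in CA3 (53.7% of the CA1 and 67.8% of the CA3 falls), of the rises 170 (38.1% and 18.6%), and 0 were called in opposite directions. Hspd1 changed by -1.28 in CA1 and -0.63 in CA3 (difference -0.65 ± 0.15, SE, adjusted p = 0.461), and its partner Hspe1, outside the naming rule, by -0.36 and 0.23 (difference -0.59, adjusted p = 0.359). S100a10 measured 0.07 in CA3 against -0.81 in CA1 (adjusted p of the difference 0.575). Scg5 changed by -1.04 in CA1 and -1.05 in CA3, and splicing factors had medians of -0.53 and -0.47. A p that misses the threshold does not show that the regions act alike.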

How the data were processed

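The deposited values of the Affymetrix Rat Gene 2.0 arrays were linear intensities, as their range shows. Per the submitters' processing notes the authors used PLIER and Affymetrix Expression Console. How arrays were scaled to each other is not given in the sources used here. Of 36685 probe sets, 18511 carried 1 symbol in the platform annotation and were tested as log2(intensity + 16), 575 carried several and 17599 none.

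In R 4.3.3, limma 3.58.1 fitted all 27 arrays with a term for each pool and a polysome effect for each region and condition (9 residual and 13.4 prior degrees of freedom, intensity trend). Tests were two-sided, and p-values were adjusted by Benjamini and Hochberg over all 18511. The block follows the study's design, in which both fractions came from the same pool, and pools were matched by the codes in the descriptions, which differ from the title numbers of 8R CA1 polysome arrays. Deviations of same-pool arrays correlated at 0.04, 0.17 and 0.02 in NIC CA1 and at 0.28, 0.29 and 0.62 in 8R CA1. Pairs of different pools correlated at -0.12 to 0.09 in NIC CA1 and at -0.41 to 0.38 in 8R CA1, which overlaps the same-pool values. CA1 and CA3 pools may share rats.

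Genes named were the 15 largest rises and 15 largest falls among calls whose 3 and 3 pool ratios did not overlap, and in each list up to 4 members with the largest absolute change. Locus names were counted only. The members, 40 lists and tests were chosen with earlier results of these data known. The fit was tested on simulated data. Alternatives were the block, scaling, added constant, level filter, probe set choice, array weights, trend and each pool left out. Leaving out 8R pool 4 in both regions was added after seeing the data.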

Additional observations from a re-analysis of the deposited data

Results flagged for a closer look

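In 8R CA1 total RNA, Mir18a measured 102 in pool 4 and 0.625 to 0.87 in the other 3 pools, a gap that makes up nearly the whole range of the 4 values. Ces1dl1 measured 25.7 in pool 4 and 8.67 to 11.4 in the others. These were 2 of 31 sets of 4 values examined for a lone high or low array, those of the 30 named genes and the array medians, and chance gives about 1 in 20. The 4 arrays of 8R pool 4, from both regions and fractions, also deviated together, and the part of the pool in either value was not tested.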

How the results depend on the processing

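The counts of 446 rises and 2459 falls were 51 and 348 without the replicate block, and the falls numbered 1638 with the block set by title number and 1551 with pool as a random effect. Quantile normalization gave 856 and 983, and leaving out 8R pool 4 in both regions gave 232 rises. Leaving out any 1 pool gave 223 to 540 rises and 1415 to 2558 falls. The CA1 minus CA3 difference had 0 calls in each setting, except 2 calls without NIC pool 3 of CA1, so its range over left-out pools was 0 to 2. With another added constant, centring, filter, probe set choice, array weights, no trend or CA1 arrays alone, rises were 355 to 498 and falls 1868 to 2705.

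Of 139 genes named in the lists and rankings that passed the test, 57 kept their call in every setting run, 82 lost it without the block, 27 with quantile normalization and 34 without at least 1 CA1 pool. None of the 139 changed sign in a setting run. Among those not called, Cck turned to 0.04 and Slc4a4 to 0.02 with quantile normalization, and the cause was not tested. Signal over background limits dim genes: 81 of the 446 rises (18.2%) and 43 of the 2459 falls (1.75%) lay below the 30th percentile of level.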
